A study of Rattus norvegicus with 4 samples.

Results

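The cyclin-dependent kinase inhibitor genes were followed in cultured rat Schwann cells (SCs), the glia of peripheral nerve, after ectopic expression of the Egr2 promoter antisense RNA (Egr2-AS). The members were listed by name as Cdkn1a, Cdkn1b, Cdkn1c, Cdkn2a, Cdkn2b, Cdkn2c and Cdkn2d, and were taken from the deposited count table by gene symbol. They were chosen with earlier results of these data known. Of these 7 genes, 6 were found among the 17949 genes of the table and all 6 passed the filter on low counts. Cdkn2d was matched to no row and was not analysed here. Genes that share the Cdkn name but belong to other families, such as Cdkn3, were not counted as members.

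The SCs were primary cells from rat sciatic nerve. They were infected for 48 h, at 2 UFC per cell with polybrene, with a lentivirus that overexpresses the Egr2-AS (Lenti-AS, n = 2) or with the control virus carrying GFP (Lenti-GFP, n = 2). The antisense virus carries a red fluorescent protein in place of GFP, and an effect of the reporter and one of the RNA cannot be told apart. Both groups were grown in DMEM with 10% FBS, 4 μM forskolin and 5 ng/ml heregulin-β1, that is, with a cAMP-raising agent and a neuregulin that drive SC division in culture. Each library was made from the total RNA of the same number of cells, and the labels and the study's methods call the replicates biological. Neither says whether they came from separate cultures or animals, so the p-values measure the spread between these samples. The age of the rats is not given in the sources used here.

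These genes encode the brakes of the cell cycle. Cyclins bind and activate cyclin-dependent kinases (CDKs), which phosphorylate the retinoblastoma pocket proteins and so release the E2F factors that switch on S phase genes. The Cip/Kip proteins p21 (Cdkn1a), p27 (Cdkn1b) and p57 (Cdkn1c) bind cyclin-CDK complexes of several phases, and p21 also binds the replication clamp PCNA. The INK4 proteins bind CDK4 and CDK6 and keep them from D-type cyclins. They are p16 (Cdkn2a), p15 (Cdkn2b), p18 (Cdkn2c) and p19 (Cdkn2d). The Cdkn2a locus also encodes ARF, from an alternative reading frame, which restrains MDM2 and so stabilises p53. In peripheral nerve, SCs leave the cell cycle when they myelinate and enter it again after injury.

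The 4 libraries held between 74024323 and 96185890 counts, and a member's count in a single library lay between 1441 and 20299. The overexpressed antisense RNA is not a row of the table and so could not be used to check the labels. Egr2 was at 49.2 and 42.2 CPM (counts scaled to a common library size) in Lenti-GFP and 61.2 and 54.0 CPM in Lenti-AS. Its fitted log2 fold change was 0.33 (adjusted p = 0.152 from edgeR), with both Lenti-AS samples above both Lenti-GFP samples. The paper reports the opposite direction for the EGR2 protein, which was lower with Lenti-AS. With the Egr2-AS it also reports less accessible chromatin at the Egr2 locus and lower Egr2 promoter activity in a luciferase assay. More of the repressive histone mark H3K27me3 was found at the Egr2 promoter. The paper places the antisense RNA at the promoter, and reads were counted over exons. Whether reads of the antisense RNA add to the Egr2 count was not tested, and the strand setting is not given. SC markers were high in all libraries, with at least 2027 CPM of S100b, though Gap43 was at or under 0.264 CPM. The summed CPM of the 6 leukocyte markers was 3.30 to 4.34, and that of the 4 endothelial markers was 15.1 to 20.6. Among the 7 fibroblast and perineurial markers Dcn, Lum and Thy1 were at or under 0.0321 CPM, while the list sum was 999 and 859 CPM in Lenti-GFP, 2475 CPM in Lenti-AS 1 and 414 CPM in Lenti-AS 2, most of it from Col1a1. Globin genes took 0.351% of the counts in Lenti-AS 2 and at most 0.0011% in the other libraries. Lenti-AS 1 and Lenti-AS 2 thus stood apart from the rest for different genes.

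To determine whether the Egr2-AS changed the level of the CDK inhibitors, edgeR's quasi-likelihood test was run between the groups over all 12446 genes that passed the filter. Genes were called where the p adjusted by Benjamini-Hochberg was under 0.05 and the fitted change reached 1.3-fold. Cdkn1a was called higher in Lenti-AS, and the 5 other measured members were not called in either direction. Across all genes tested 1.98% were called, 1.31% higher and 0.667% lower. In all 6 members the Lenti-AS samples lay on the same side of both Lenti-GFP samples, 3 above and 3 below. That holds for 54.9% of all genes tested, 27.7% above and 27.2% below. Before adjustment 2 members, Cdkn1a and Cdkn2c, had p under 0.05, as did 21.8% of all genes. The median log2 fold change was 0.01 over the members and 0.01 over all genes.

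**Figure D1:**
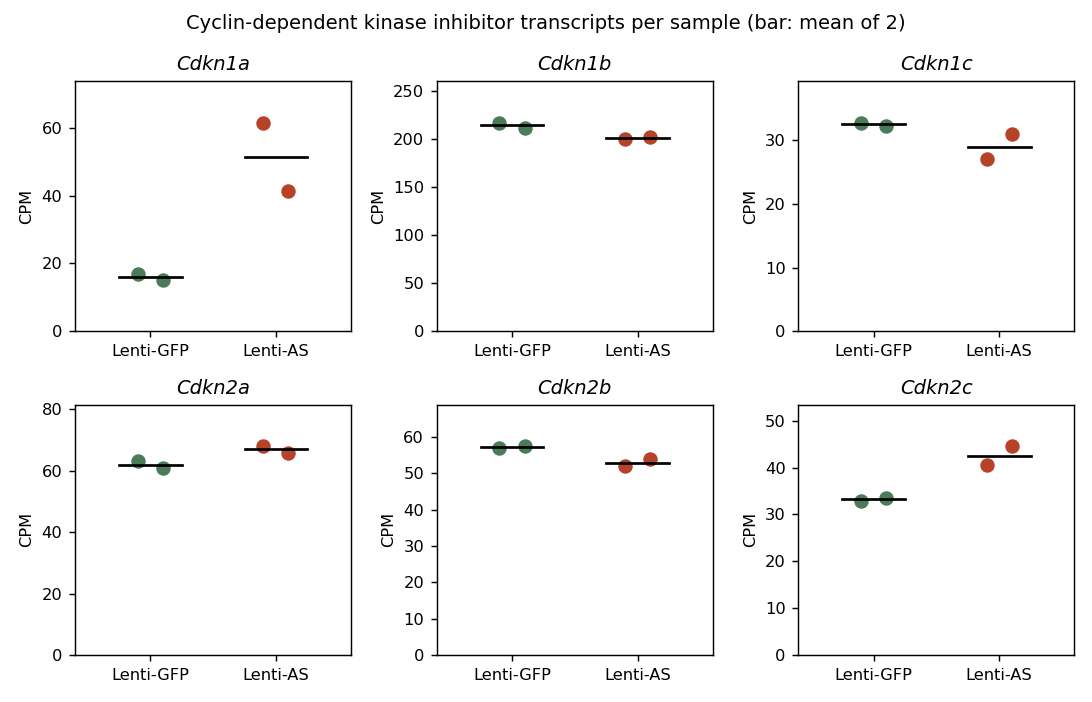
CPM of the 6 measured CDK inhibitor genes in each sample (points) with the mean of the 2 samples of each group (bars), each panel on its own axis from 0. Cdkn1a stands at 15.2 to 16.8 CPM in Lenti-GFP and 41.2 to 61.5 CPM in Lenti-AS, while the groups of the other members lie close together.

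Cdkn1a encodes p21, the inhibitor through which p53 arrests the cell cycle. It had 1564 and 1441 counts in Lenti-GFP 1 and 2 and 5386 and 3098 counts in Lenti-AS 1 and 2. Scaled to library size these were 16.8 and 15.2 CPM in Lenti-GFP and 61.5 and 41.2 CPM in Lenti-AS. The Lenti-AS samples were thus far above both Lenti-GFP samples, and the gap of 24.5 CPM that separated the groups at their closest was larger than the 20.2 CPM between the Lenti-AS samples and the 1.55 CPM between the Lenti-GFP samples. The means were 16.0 ± 1.10 CPM and 51.3 ± 14.3 CPM (SD, n = 2 each). The fitted log2 fold change was 1.68 (standard error 0.19, 95% interval 1.22 to 2.15), a 3.21-fold rise (adjusted p = 0.0247, edgeR quasi-likelihood test). Of all genes tested, 0.498% had a larger fitted change in either direction. In bulk RNA, more cells that express Cdkn1a and more Cdkn1a RNA per cell cannot be told apart.

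The size of the Cdkn1a rise differed between the Lenti-AS samples. Lenti-AS 1 was at 3.85 times the Lenti-GFP mean and Lenti-AS 2 at 2.58 times. Counting error does not cover that difference, since the exact Poisson 95% intervals were 59.8 to 63.1 CPM in Lenti-AS 1 and 39.8 to 42.7 CPM in Lenti-AS 2 (they cover counting error only). Of all genes tested, 11.8% differed more between the Lenti-AS samples than Cdkn1a, which differed by 0.58 on the log2 scale. Without Lenti-AS 1 the log2 fold change of Cdkn1a was 1.37, and without Lenti-AS 2 it was 1.94. The call was kept without either of them, with adjusted p = 2.62e-13 and 6.47e-19 from edgeR. It was lost without Lenti-GFP 1 (log2 fold change 1.76, adjusted p = 0.200) and without Lenti-GFP 2 (log2 fold change 1.62, adjusted p = 0.276), fits in which 0 genes of the whole table were called higher and the lone sample was assumed to vary like the other group, as in the fits with 1 Lenti-AS sample. At an unadjusted p under 0.05 those fits held 1199 and 931 genes in either direction. Col1a1 also differed between the Lenti-AS samples. It was at 2131 CPM in Lenti-AS 1 and 290 CPM in Lenti-AS 2, against 841 and 721 CPM in Lenti-GFP. In the same order of libraries, Cdkn1a was at 61.5, 41.2, 16.8 and 15.2 CPM. A link between the levels of Col1a1 and Cdkn1a was not tested.

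**Figure D2:**
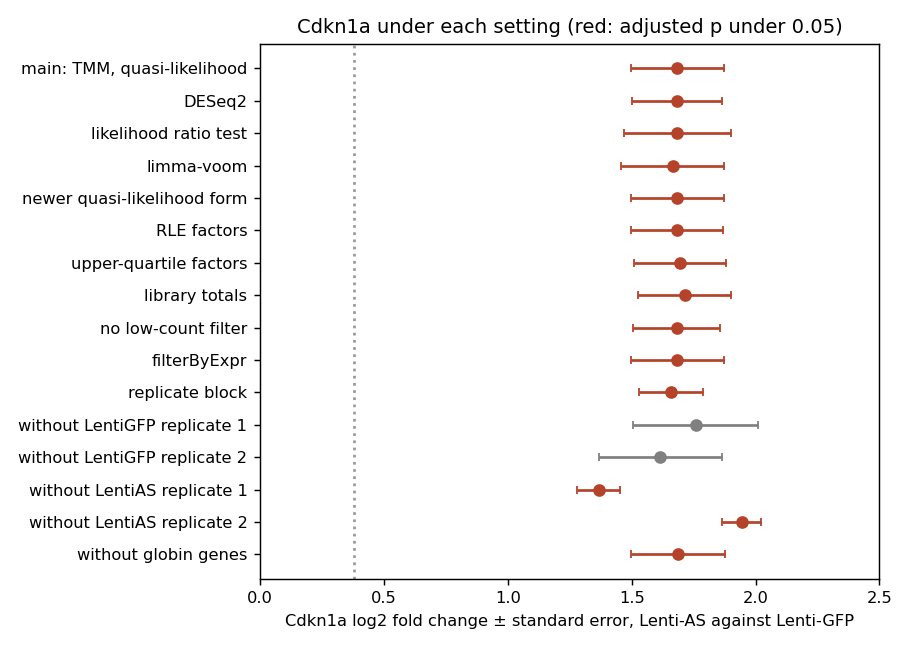
Fitted log2 fold change of Cdkn1a with its standard error (x axis) under the setting used in the text and each alternative (y axis), with settings of adjusted p under 0.05 in red and a dotted line at 1.3-fold. The estimates lie between 1.37 and 1.94, and the 2 settings without a Lenti-GFP sample have adjusted p = 0.200 and 0.276.

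The promoter windows of Cdkn1a and of Cdkn1b, the member with the most counts, are shown because they differ in the motifs they hold. RefSeq windows of 300 bases, 250 before and 50 after a start site of the GRCr8 assembly, were given for 6 of the 7 members, not for Cdkn1c. The counts were made on rn6, so these positions belong to another build, and other start sites of the genes were not looked at. A p53 site was taken as a pair of adjacent copies of the p53 half-site consensus, 20 bases in all, with at most 1 mismatch on either strand. Of 33469 windows in the table, 0.0717% hold such a match. The capitals in Cdkn1a mark the p53 site, which lies at bases -201 to -182 from the start site with 1 mismatch (chr20:7150682-7150981, plus strand). The capitals in Cdkn1b mark its GC box GGGCGG and its CCAAT boxes, read on both strands (chr4:169491254-169491553, plus strand).
Cdkn1a: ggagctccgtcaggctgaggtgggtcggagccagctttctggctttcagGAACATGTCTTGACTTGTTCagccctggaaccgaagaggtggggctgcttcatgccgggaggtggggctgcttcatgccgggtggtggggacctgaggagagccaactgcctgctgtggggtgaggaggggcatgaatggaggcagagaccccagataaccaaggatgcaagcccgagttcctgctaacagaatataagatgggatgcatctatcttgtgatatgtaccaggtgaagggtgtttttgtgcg
Cdkn1b: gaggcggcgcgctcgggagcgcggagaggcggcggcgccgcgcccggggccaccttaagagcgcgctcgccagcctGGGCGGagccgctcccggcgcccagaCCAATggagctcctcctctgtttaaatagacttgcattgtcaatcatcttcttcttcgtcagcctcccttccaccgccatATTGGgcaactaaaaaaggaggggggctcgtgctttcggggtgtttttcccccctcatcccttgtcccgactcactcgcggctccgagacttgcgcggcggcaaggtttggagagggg

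No window of the other 5 members held a p53 site. At least 1 GC box GGGCGG was found, on either strand, in the windows of Cdkn1b, Cdkn2a, Cdkn2b, Cdkn2c and Cdkn2d, with 1, 1, 3, 1 and 5 matches, and none in that of Cdkn1a. Of all windows, 33.1% hold a GC box. The Cdkn1a window had the lowest GC content of the 6, at 56.7%, where the others had 62.3% to 69.7% and the median of all windows was 51.7%. Cdkn2b held a full cAMP response element TGACGTCA, which 1.83% of all windows hold. None of the 6 windows held the AP-1 site TGACTCA (4.63% of all windows) or the E2F sites TTTCCCGC or TTTGGCGC (1.45%). A match of letters is a description and not a measured binding site. Each match, or lack of one, holds only for the start site of that window. Windows at other start sites, also of Cdkn1a, were not looked at.

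Cdkn1b encodes p27, the inhibitor that holds resting cells out of the cycle. It had 217 and 212 CPM in Lenti-GFP and 201 and 203 CPM in Lenti-AS. Its Lenti-AS levels were below both Lenti-GFP samples, by 8.91 CPM between the nearest ones. The fitted difference was small and did not pass the test, with a log2 fold change of -0.09 (standard error 0.05, 95% interval -0.21 to 0.04, adjusted p = 0.357 from edgeR). At 15253 to 20299 counts per library, this interval leaves room for a level at most 13.8% lower or 2.51% higher in Lenti-AS. Cdkn1c encodes p57, an imprinted inhibitor that restrains growth in development. It was at 32.8 and 32.3 CPM in Lenti-GFP and 27.0 and 31.0 CPM in Lenti-AS. The Lenti-AS samples differed by 3.98 CPM and the nearest samples of the groups by 1.33 CPM, so the distance between the groups was within the spread of Lenti-AS. Its log2 fold change was -0.17 (standard error 0.08, 95% interval -0.37 to 0.04, adjusted p = 0.305 from edgeR). It was -0.07 without Lenti-AS 1 (adjusted p = 0.581) and -0.27 without Lenti-AS 2 (adjusted p = 0.0135, short of the fold change cut-off), so its size rested on single libraries. Of the Cip/Kip genes, only Cdkn1a was thus called, as higher. The fitted levels of the p27 and p57 transcripts were below those of the control, but both intervals include 0 and neither passed the test.

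Of the INK4 genes, Cdkn2c had the largest fitted change. It encodes p18 and is known as an E2F target that is expressed in dividing cells. It had 32.96 and 33.41 CPM in Lenti-GFP and 40.6 and 44.5 CPM in Lenti-AS. The gap of 7.19 CPM between the groups was larger than the 3.90 CPM between the Lenti-AS samples and the 0.452 CPM between the Lenti-GFP samples. The log2 fold change of Cdkn2c was 0.36 (standard error 0.07, 95% interval 0.18 to 0.54), or 28.2% more RNA. Its p in edgeR was 0.00291 before and its adjusted p = 0.0755 after correction. It missed both cut-offs. DESeq2 gave an adjusted p = 0.00324 with the same fold change of under 1.3, and edgeR without Lenti-AS 1 called Cdkn2c higher (log2 fold change 0.42, adjusted p = 0.000107). Without Lenti-AS 2 the log2 fold change was 0.29 with an adjusted p = 0.00419, again short of the fold change cut-off.

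Cdkn2a and Cdkn2b, which lie close together on chromosome 5, showed small differences of opposite sign. Cdkn2a had 63.0 and 60.8 CPM in Lenti-GFP and 67.9 and 65.9 CPM in Lenti-AS. The counts are summed over the gene, so transcripts of p16 and ARF cannot be told apart. The log2 fold change of Cdkn2a was 0.11 (standard error 0.07, 95% interval -0.05 to 0.28, adjusted p = 0.377 from edgeR). Cdkn2b, an inhibitor known to respond to TGF-beta, had 57.0 and 57.4 CPM in Lenti-GFP and 52.0 and 53.9 CPM in Lenti-AS. Its log2 fold change was -0.11 (standard error 0.07, 95% interval -0.28 to 0.05, adjusted p = 0.372 from edgeR). For both genes the samples of the groups did not overlap, but the fitted change did not pass the test. These intervals reach at most 21.2% above the control for Cdkn2a and 17.4% below it for Cdkn2b, so a change of Cdkn2a or Cdkn2b as large as that of Cdkn1a lies outside them.

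**Figure D3:**
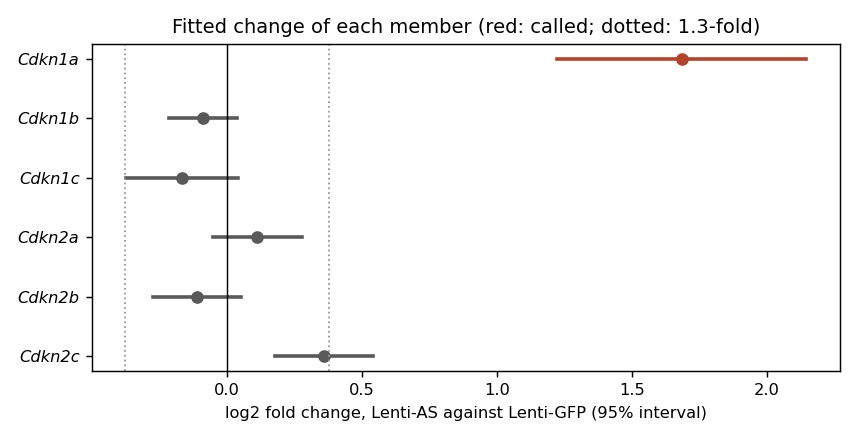
Fitted log2 fold change of each measured member, Lenti-AS against Lenti-GFP (points), with its 95% interval (lines) and dotted lines at 1.3-fold in either direction. The interval of Cdkn1a runs from 1.22 to 2.15 and that of Cdkn2c from 0.18 to 0.54, and those of the other 4 members include 0.

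The make-up of the family's reads shifted towards Cdkn1a. Counts were not corrected for gene length, so the shares are compared between samples and not between genes. Cdkn1a made up 3.99% and 3.70% of the counts of the 6 genes in Lenti-GFP 1 and 2 (Wilson 95% intervals 3.80% to 4.19% and 3.52% to 3.89%). In Lenti-AS 1 its share was 13.7% (13.3% to 14.0%) and in Lenti-AS 2 it was 9.38% (9.07% to 9.70%). Over the same samples the share of Cdkn1b was 51.8% and 51.5% in Lenti-GFP and 44.6% and 46.2% in Lenti-AS. The shares of a sample add up to the whole, so a larger Cdkn1a share by itself lowers those of the other members. The summed level of the 6 genes came to 415 ± 6.36 CPM in the control and to 445 ± 7.20 CPM with the Egr2-AS (SD, n = 2 each). Without Cdkn1a the sums were 399 ± 5.26 CPM and 393 ± 7.11 CPM, whose samples overlapped.

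**Figure D4:**
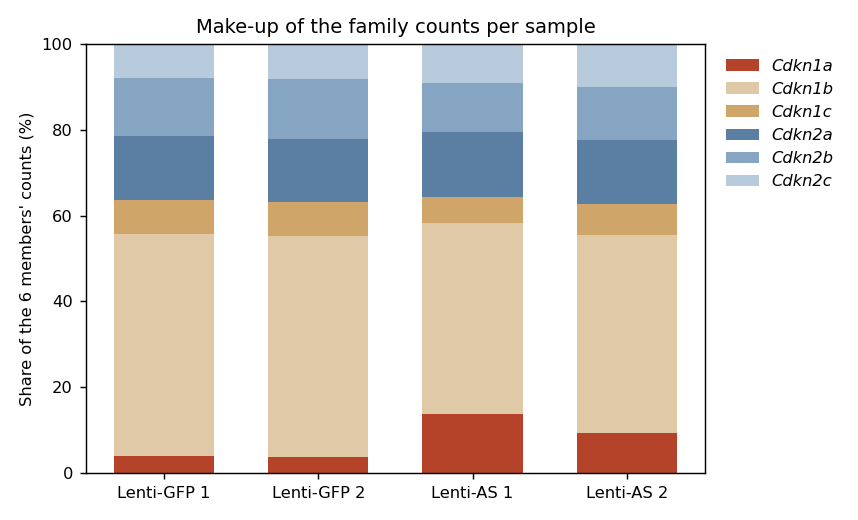
Share of the counts of the 6 measured members that fell on each member (y axis, percent) in each of the 4 samples (bars), not corrected for gene length. The Cdkn1a part is 3.70% to 3.99% in Lenti-GFP and 9.38% to 13.7% in Lenti-AS.

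To set Cdkn1a directly against each other member, the log2 ratio of its counts to theirs was taken within each library, which does not depend on library scaling. The ratio of Cdkn1a to Cdkn1b was -3.70 and -3.80 in Lenti-GFP and -1.71 and -2.30 in Lenti-AS. It was higher in Lenti-AS by 1.75 on the log2 scale. For Cdkn1c, Cdkn2a, Cdkn2b and Cdkn2c the ratio was higher by 1.83, 1.54, 1.77 and 1.3. In all 5 ratios the groups were apart, with Lenti-AS the higher and with a nearest gap of 0.87 for Cdkn2c and 1.23 to 1.40 for the others. The exact permutation test (two-sided) gave p = 0.333 for each of the 5 ratios, also after adjustment over them, which is the smallest p that 2 samples against 2 allow. The ratios share Cdkn1a and are not independent of each other.

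The genes whose profile over the 4 samples was most like that of Cdkn1a were named by the root mean square difference of log2 CPM values centred on each gene's mean, among 7801 other genes with at least 10 CPM on average. In order of likeness they were Nectin1, Pcdh17, Nrarp, Gtse1 and Tnfrsf21, with differences of 0.29, 0.37, 0.37, 0.40 and 0.40 where the median gene had 0.85. Nectin1, a cell adhesion gene, was the nearest and also differed between the Lenti-AS samples, at 7.10 and 6.76 CPM in Lenti-GFP and 19.7 and 11.5 CPM in Lenti-AS. It was not called (log2 fold change 1.17 ± 0.25 SE, adjusted p = 0.0788 from edgeR), but it was called when Lenti-AS 1 or Lenti-AS 2 was left out and by DESeq2 (adjusted p = 7.71e-05). The other 4 were called higher. Their log2 fold changes were 0.97 for the protocadherin gene Pcdh17, 0.98 for the Notch feedback gene Nrarp, 0.94 for Gtse1, which encodes a microtubule-binding protein of S and G2 phase, and 0.93 for the death receptor gene Tnfrsf21 (adjusted p = 0.0177, 0.0189, 0.0191 and 0.0247 from edgeR). This likeness is over 4 samples and rests mostly on the difference between the groups.

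The targets of the inhibitors were set beside them from a list of 13 genes, the G1, S and M phase cyclins and CDKs and Pcna. This list was chosen with earlier results of these samples known and is not independent evidence of its direction. Of these 13 genes, 2 were called higher and 0 lower, with a median log2 fold change of 0.28, where 1.31% of all genes were called higher and the median of all was 0.01. All 13 were higher in each Lenti-AS library than in either Lenti-GFP library, as were 27.7% of all genes tested. At an unadjusted p under 0.05 from edgeR, 8 of the 13 were higher and 0 lower, and DESeq2 also called 0 lower. Called were Ccna2, the cyclin of S and G2 phase, and Cdk1, the kinase of mitosis. Ccna2 rose from 53.9 and 52.5 CPM in Lenti-GFP to 74.2 and 81.3 CPM in Lenti-AS (log2 fold change 0.55 ± 0.08 SE, adjusted p = 0.0360 from edgeR). Cdk1 rose from 107 and 113 CPM to 152 and 143 CPM (log2 fold change 0.42 ± 0.06 SE, adjusted p = 0.0409), and the call of Cdk1 was lost without Lenti-AS 1, at a log2 fold change of 0.377, just under the cut-off.

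The D-type cyclins and their kinases, the partners that INK4 proteins act on, were not called. Ccnd1 was at 586 and 615 CPM in Lenti-GFP and 779 and 684 CPM in Lenti-AS, with a log2 fold change of 0.28 (adjusted p = 0.117 from edgeR). Ccnd2 and Ccnd3 had log2 fold changes of 0.26 and 0.32 (adjusted p = 0.0688 and 0.0463 from edgeR), and Ccnd3 missed only the fold change cut-off. Cdk4 and Cdk6 had 0.06 and 0.12, with adjusted p = 0.559 and 0.711. The E-type cyclins and Cdk2, which p21 and p27 inhibit, were not called either. Ccne1, at 5.88 and 5.70 CPM in Lenti-GFP and 9.87 and 7.92 CPM in Lenti-AS, had a log2 fold change of 0.62 (standard error 0.15, adjusted p = 0.0946 from edgeR, and called by DESeq2 with adjusted p = 0.0105). Ccne1 was also called by the likelihood ratio test (adjusted p = 0.0374), without Lenti-AS 1 (log2 fold change 0.45, adjusted p = 0.0284) and without Lenti-AS 2 (0.77, adjusted p = 5.69e-05). Ccne2 and Cdk2 had log2 fold changes of 0.19 and 0.16 (adjusted p = 0.335 and 0.240 from edgeR), and that of Ccne2 was 0.04 without Lenti-AS 1 and 0.32 without Lenti-AS 2. Ccna1, a cyclin of the germ line with at most 1.96 CPM here, had 0.47 (adjusted p = 0.251). Ccnb1, the cyclin of mitosis, had 0.38 (adjusted p = 0.0464 from edgeR) and lay just under the fold change cut-off, while Pcna had 0.15 (adjusted p = 0.198). Ccnb1 was called without Lenti-AS 2 (log2 fold change 0.42, adjusted p = 2.05e-06), with upper-quartile factors (0.39), with library totals (0.41) and without the globin genes (0.3809), so its call depends on these settings.

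Downstream of the kinases, the median log2 fold change of 10 tested pocket protein and E2F genes was 0.18, against 0.01 over all genes. Of these 10, 2 were called higher and 0 lower, beside 1.31% and 0.667% of all genes. They were Rbl1, which encodes the pocket protein p107, at 23.7 and 24.5 CPM in Lenti-GFP and 32.7 and 36.0 CPM in Lenti-AS (log2 fold change 0.51, adjusted p = 0.0389 from edgeR), and E2f1, the activator of S phase genes, at 27.9 and 28.8 CPM and 37.6 and 38.0 CPM (0.42, adjusted p = 0.0419). The turnover of the inhibitor proteins was described by 15 tested genes, among them those of ubiquitin ligases that degrade these proteins, with a median of -0.05. Among these 15, 1 was called higher, the mitotic ligase activator Cdc20 (log2 fold change 0.67, adjusted p = 0.0252 from edgeR), and 0 lower. Of all genes, 1.31% were called higher and 0.667% lower. Cdc20 is also on the S phase and mitosis list and is counted there too. Skp2, which directs p27 to degradation, was at 17.7 and 17.6 CPM in Lenti-GFP and 17.1 and 18.9 CPM in Lenti-AS, so its groups overlapped, and it is named here after its values were seen.

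Of 30 tested transcription factors and Polycomb proteins known to act on the inhibitor genes, 0 were called in either direction by edgeR's quasi-likelihood test, with a median log2 fold change of 0.09. At an unadjusted p under 0.05 there were 9 of the 30, beside 21.8% of all genes. DESeq2 called 3 higher and 0 lower, where it called 3.92% of all genes higher. Without Lenti-AS 1, 3 were called higher and 1 lower (4.62% and 2.26% of all genes), and without Lenti-AS 2, 8 were called higher (10.2% of all genes).

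The known targets of p53 other than Cdkn1a were counted from a list of 25 genes, of which 24 were tested. This list, too, was chosen with earlier results of these samples known and is not independent evidence of its direction. In Lenti-AS 5 of the 24 were called higher and 0 lower, 20.8% against 1.31% of all genes, with a median log2 fold change of 0.28. Both Lenti-AS samples lay above both Lenti-GFP samples in 15 of the 24 and below them in 3. Of all genes tested, 27.7% lay above and 27.2% below in this way. The death receptor gene Fas rose from 8.10 and 7.74 CPM in Lenti-GFP to 14.9 and 14.3 CPM in Lenti-AS (log2 fold change 0.88 ± 0.09 SE, adjusted p = 0.0232 from edgeR). The RNA-binding gene Zmat3 rose from 21.4 and 22.7 CPM to 39.1 and 32.8 CPM (0.71, adjusted p = 0.0368), and Sesn2, a stress gene that is also a target of ATF4, from 20.9 and 19.8 CPM to 33.5 and 32.4 CPM (0.69, adjusted p = 0.0191). The cyclin G1 gene Ccng1 rose from 775 and 820 CPM to 1165 and 1129 CPM (0.52, adjusted p = 0.0232), and the growth arrest gene Gadd45a from 168 and 167 CPM to 223 and 226 CPM (0.42, adjusted p = 0.0252). Between the Lenti-AS samples each of these 5 genes differed by a smaller factor than Cdkn1a. Of the others, Mdm2, the p53 ligase gene, missed both cut-offs (log2 fold change 0.29, adjusted p = 0.0540), and Bax and Phlda3 had log2 fold changes of 0.05 and -0.03 with adjusted p = 0.607 and 0.793. These 3 are named after their values were seen. Without Lenti-AS 2, 9 of the p53 targets were called higher, in a fit that called 10.2% of all genes higher. With Lenti-GFP 1 or Lenti-GFP 2 left out 0 were, in fits that called 0 genes higher in all.

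The promoter windows of 20 of the 25 listed targets were given, and 1, that of Ccng1, held a p53 site as defined for Cdkn1a. Among the genes named by likeness to Cdkn1a, Gtse1 held one. These windows are shown beside that of Cdkn1a with the site in capitals, each with 1 mismatch. The Ccng1 site lies at bases -242 to -223 (chr10:25684827-25685126, minus strand) and the Gtse1 site at -31 to -12 (chr7:118829923-118830222, plus strand), in GRCr8.
Ccng1: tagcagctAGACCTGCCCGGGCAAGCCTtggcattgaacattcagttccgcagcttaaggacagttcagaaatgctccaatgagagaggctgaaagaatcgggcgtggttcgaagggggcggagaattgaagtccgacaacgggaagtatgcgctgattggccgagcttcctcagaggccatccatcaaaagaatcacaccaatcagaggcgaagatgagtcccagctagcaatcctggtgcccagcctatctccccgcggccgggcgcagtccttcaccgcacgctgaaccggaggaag
Gtse1: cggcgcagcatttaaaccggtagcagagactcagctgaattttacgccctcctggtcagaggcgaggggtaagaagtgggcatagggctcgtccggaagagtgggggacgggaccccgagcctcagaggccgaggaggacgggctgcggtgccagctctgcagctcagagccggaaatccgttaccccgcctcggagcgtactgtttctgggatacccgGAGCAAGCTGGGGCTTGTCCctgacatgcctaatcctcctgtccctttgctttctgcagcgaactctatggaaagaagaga

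Windows were matched to 9814 of the genes tested, 78.9%. Of these, 5 held the site, Cdkn1a, Ccng1, Gtse1, Rnps1 and Tmsb15b2, which is too few for a comparison of genes with and without it. Rnps1 and Tmsb15b2, named after their values were seen, were not called (log2 fold change 0.09 and -0.28, adjusted p = 0.612 and 0.238 from edgeR).

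The genes of S phase and mitosis, whose expression accompanies division, were called higher in 18 of 29 tested and lower in 0, against 1.31% of all genes higher, and their median log2 fold change was 0.46. The groups did not overlap in 28 of the 29, all of them higher in Lenti-AS, where 27.7% of all genes tested were apart in that direction. Those with the smallest p-values were Cenpf, Ube2c, Rrm2, Tpx2, Ccnb2 and Kif20a, with log2 fold changes of 0.65, 0.65, 0.65, 0.61, 0.65 and 0.46 and adjusted p from 0.0144 to 0.0252 from edgeR. Cenpf, a kinetochore gene, had 91.0 and 91.7 CPM in Lenti-GFP and 143 and 143 CPM in Lenti-AS, and the ribonucleotide reductase gene Rrm2 had 33.1 and 33.4 CPM and 52.1 and 52.1 CPM. Transcripts of the inhibitor p21 and of the division genes were thus both higher in the same Lenti-AS libraries. Before adjustment, edgeR gave p under 0.05 to 0 lower genes of the pocket protein and E2F list, 2 of the turnover list, 2 of the p53 targets and 0 of the S phase and mitosis genes, and DESeq2 called 0 lower in each of these lists. The S phase and mitosis list, like the other lists, was chosen with earlier results of these samples known. It is not independent evidence of its direction. With Lenti-GFP 1 or Lenti-GFP 2 left out, 0 of its genes were called, in fits that called 0 genes higher in the whole table.

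**Figure D5:**
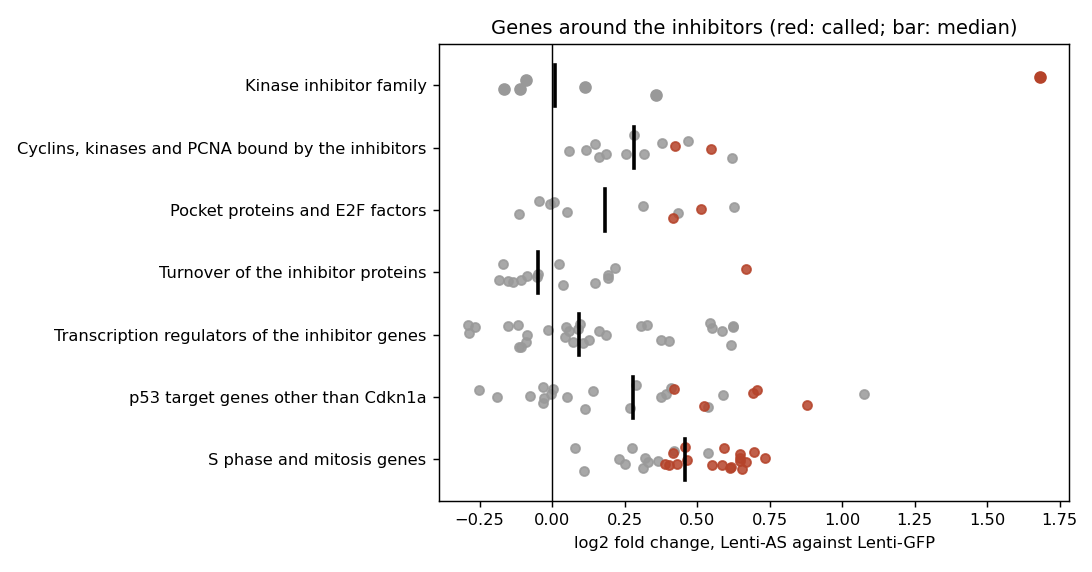
Fitted log2 fold change, Lenti-AS against Lenti-GFP (x axis), of each tested gene in the family and in the 6 gene lists (y axis, with points spread vertically for legibility), with called genes in red and the median as a bar. Cdkn1a stands at 1.68, the medians lie between -0.05 for the turnover list and 0.46 for the S phase and mitosis list.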

How the data were processed

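RNA was sequenced as 50 bp paired-end reads from 2 µg of RNA per sample, and reads were mapped to the rat genome rn6 and counted per gene with featureCounts by the authors. The study's methods name HISAT2 as the aligner and the submitters' processing notes name GSNAP, and the version and the strand setting are not given in the sources used here. The deposited values are raw counts per gene, with replicates kept apart and no normalization. A repeat of the header line was dropped.

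The test was run on the 12446 of 17949 genes that reached 10 counts in 2 or more samples, with edgeR 4.0.16 in R 4.3.3, by the quasi-likelihood test on TMM-scaled libraries with the group as the only term and Benjamini-Hochberg adjustment over all genes tested. TMM-scaled library sizes also underlie the CPM. Standard errors were taken from the test statistic. Ratios used counts plus 0.5. Groups were taken from the sample labels. DESeq2 1.42.0, limma-voom 3.58.1 and other tests, scalings, filters and leave-one-out fits were tried as alternatives, and the edgeR fit was tested on simulated data. Library totals were 74024323 to 96185890 counts, and intervals on counts cover counting error only.

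All members were named, with the 5 genes nearest to Cdkn1a in profile, every cyclin and CDK gene, and up to 6 called genes per other list by adjusted p, ties by p. The members and lists were chosen with earlier results of these data known. Tables of gene names and promoter windows are from RefSeq (GRCr8). Gene lengths of rn6 were not used here, so levels were not compared between genes. Some genes of the lists are not reported here by name.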

Additional observations from a re-analysis of the deposited data

How the results depend on the processing

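No member changed direction under any alternative run. Apart from the fits without a sample, Cdkn1a stayed called at a log2 fold change of 1.66 to 1.71 and adjusted p of 5.43e-18 to 0.0290, and the other 5 members were not called. Leaving out a sample gave 1.37 to 1.94 for Cdkn1a (1.76 and 1.62, both not called, without Lenti-GFP 1 or 2), 0.29 to 0.42 for Cdkn2c, 0 to 2 members called, and 0 to 1260 genes higher and 1 to 278 lower, where the main test called 163 and 83. DESeq2 called 488 genes higher and 139 lower, the likelihood ratio test 374 and 147. With the replicate number as a block, 3 were called higher and 14 lower, Cdkn1a was called at a log2 fold change of 1.66, and 0 genes were called higher in each of the 6 lists. The correlation of the deviations of samples that share a number was -0.012, so the numbers were not taken as pairs. In the cyclin list 4 genes were called higher with no fold change cut-off and 0 to 4 when a sample was left out. The pocket protein and E2F list had 4 by DESeq2, 4 by the likelihood ratio test and 0 to 4 with a sample left out. The regulator list had 3 by DESeq2, 3 by the likelihood ratio test, 1 with library totals and 0 to 8 with a sample left out, and 0 to 1 lower. With a sample left out, the turnover list had 0 to 1 higher, the p53 targets 0 to 9 and the S phase and mitosis genes 0 to 20. The cause of these differences was not tested. No scaling moved the median log2 fold change of all genes past 0.039. Cdkn2d gave no value under any alternative. With 2 samples per group no exact test of a single gene can pass the threshold.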

Other observations

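A few genes carry the Cdkn name without being inhibitors of the Cip/Kip or INK4 families. Cdkn3, a phosphatase that acts on CDKs and is expressed in dividing cells, was at 18.2 and 19.8 CPM in Lenti-GFP and 27.7 and 25.4 CPM in Lenti-AS (log2 fold change 0.48, adjusted p = 0.0505 from edgeR). Cdkn2aip, which encodes a partner of ARF, and Cdkn2aipnl, its shorter relative, had log2 fold changes of -0.11 and 0.07 (adjusted p = 0.384 and 0.573 from edgeR).

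Lenti-AS 1, the library with the most Cdkn1a, was also the highest of the 4 for the genes Sox10 and Egr1. Sox10, the SC lineage factor, was at 77.1 and 72.6 CPM in Lenti-GFP, 163 CPM in Lenti-AS 1 and 61.3 CPM in Lenti-AS 2. Egr1 was at 39.4 and 31.2 CPM in Lenti-GFP, 81.9 CPM in Lenti-AS 1 and 24.2 CPM in Lenti-AS 2. The part of this difference between libraries in the Cdkn1a level was not tested.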
